A study of Ovis aries with 16 samples.

Results

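The genes described here are 27 named genes of the fetal sheep hippocampus whose array signal was lower in each of 5 hypoxia control (HC) arrays than in each of 3 normoxia control (NC) arrays. They were chosen by that absence of overlap, from 739 gene names that were measured, and 33 probes carry them. Log2 signal, after the 75th percentile of each array was subtracted, was the quantity compared, and a probe counted as measured where the scanner software marked it well above background on 3 or more of the 16 arrays. Another 11 probes of 9 genes met the same rule and were left out by name, GRIN1, GRIA4, TRAF3, BAX, ARNT, AHR, ADRB1, NFAT5 and PRKAA2. The array also prints probes under the names NR1 and ERBA BETA1, which stand for the products of GRIN1 and THRB, and since the rule goes by printed names these are among the 27. VEGFR-2, TGF-A, C-JUN and EIF4GI likewise stand for KDR, TGFA, JUN and EIF4G1. Counts and medians cover all 33 probes, and 25 of the 27 genes, on 31 probes, are described one by one.

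Arrays of 1 color (Cy3) were read for hippocampal RNA of 16 late-gestation fetal sheep, 1 fetus per array. The NC fetuses (n = 3) had normoxia for 30 min and the HC fetuses (n = 5) low oxygen through the ewe's inspired gas for 30 min. In the normoxia ketamine (NK, n = 4) and hypoxia ketamine (HK, n = 4) groups, ketamine, an anesthetic that blocks the NMDA type of glutamate receptor, had been injected intravenously at 3 mg/kg before the same stimuli. All fetuses then spent 23.5 h in normoxia before the tissue was taken at 24 h, so every value describes recovery and none the hypoxia itself. Nearly all fetuses were twins and the oxygen protocol was assigned by pregnancy, but the labels do not tie fetuses to pregnancies, so a ketamine fetus may be the littermate of a fetus whose array chose the genes. The arrays lay on 2 slides of 8, each with all 4 groups. Between 76.7% and 82.6% of the spots of an array were well above background, and the 75th percentile of intensity was 882 at the lowest and 1199 at the highest.

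In the hippocampus, glutamate is the main excitatory transmitter, and it acts through ion channels of the AMPA and NMDA types, among others. Lack of oxygen stops oxidative energy production, releases glutamate and changes transcription through oxygen-sensitive factors, while growth factors, prostaglandins and steroid and thyroid hormones shape the late-gestation brain. Some of the 27 genes belong to these systems and others do not, and whether they share a pathway was not tested.

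Of the 12545 probes measured, 617 (4.92%) had every HC array below every NC array and 363 (2.89%) had every HC array above. Among the 1128 measured probes with a gene name the balance turned, with 44, or 3.9%, lower and 61 higher, and taking away the 11 left out gives the 33 probes here. The lower direction and the size of each HC-NC difference were therefore fixed by the choice, carry no test and support nothing. The median HC-NC difference of the 33 probes was -0.71 on the log2 scale, against -0.03 over all measured probes. The HC mean lay below the NC mean for all 33 with quantile normalization, median scaling and the authors' deposited log2 values, but for 12 of 33 with normexp background correction, under which the median of all measured probes moved to 0.34. That correction went astray on arrays with a few extreme local backgrounds, and once those were reset, the HC mean was again the lower one for all 33. Absence of overlap, the property that chose the probes, was kept by fewer, namely 31 of 33 with quantile normalization, 31 with median scaling, 24 with the reset normexp, 16 with the authors' deposited values and 6 with normexp as planned. The signal was strong enough to be marked well above background on all 16 arrays for 25 of the 33 probes, no spot was saturated, and 2 probes, of MMP14 and TGF-A, held the software's surrogate value on 1 array each. The median GC content of the probe sequences was 45% for the 33 probes, 45% for the measured named probes and 43.3% for all measured probes.

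**Figure D1:**
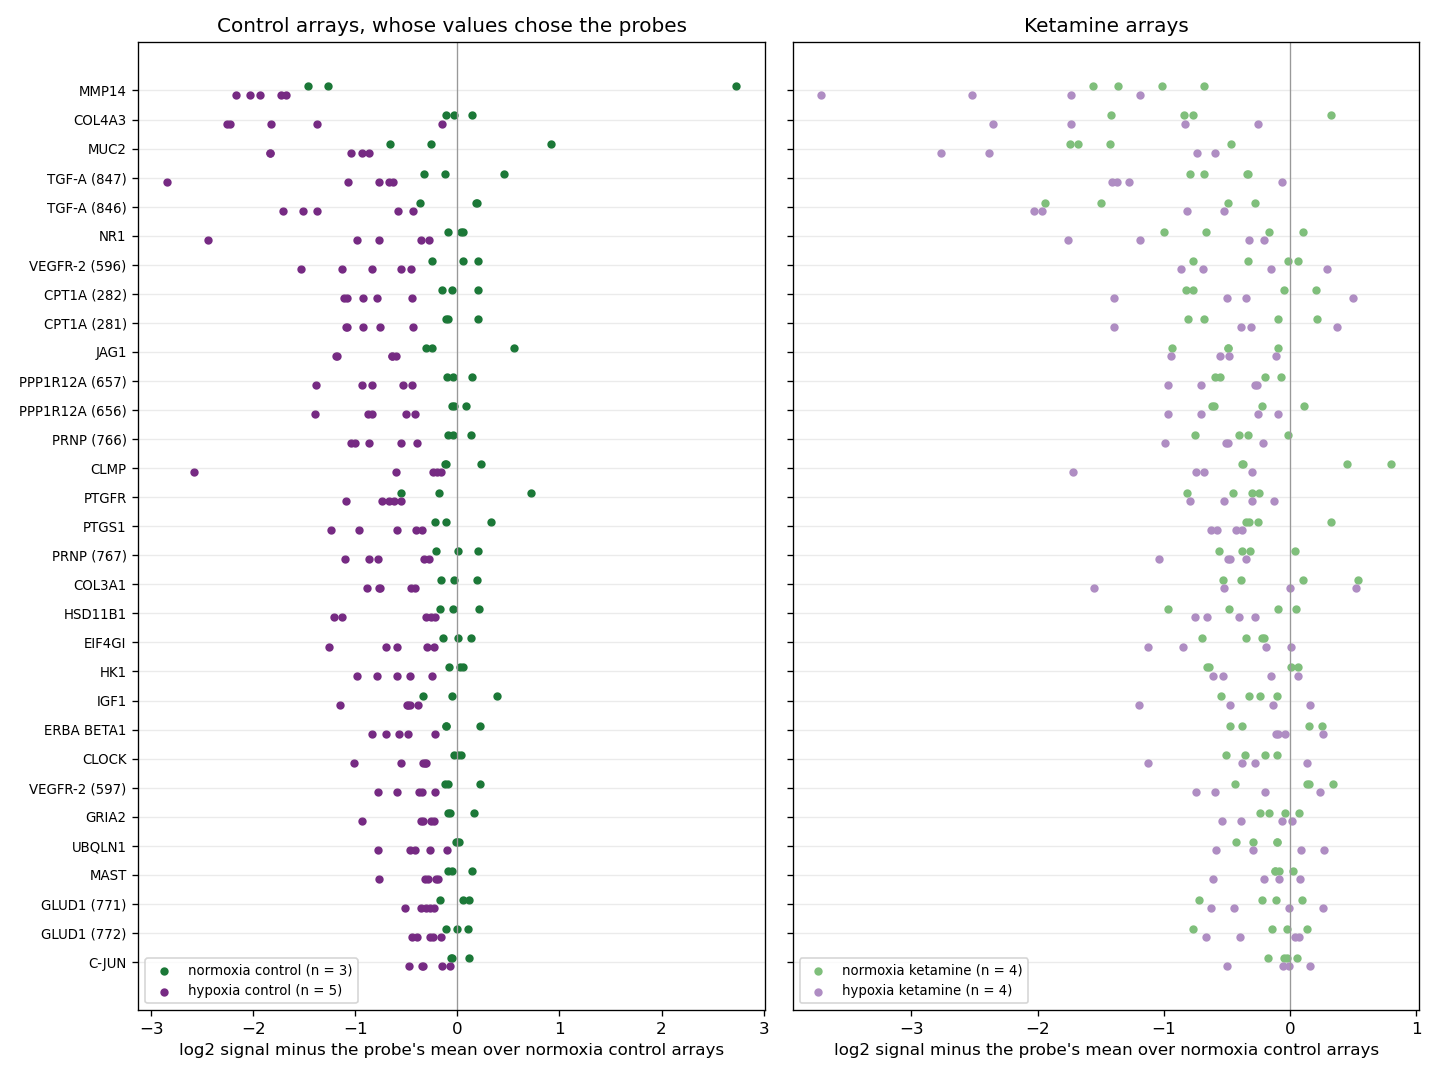
Log2 signal of 31 of the 33 probes minus that probe's mean over the NC arrays (horizontal axis), 1 point per array, ordered by the HC-NC difference, with NC (n = 3) and HC (n = 5) on the left and NK (n = 4) and HK (n = 4) on the right. On the left the groups do not overlap because that chose the probes, and on the right every HK array lies below every NK array for 1 probe, of PTGS1 (HK1 is here the hexokinase gene).

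The name by which these genes are grouped, lower in every hypoxia array, holds for the HC arrays by construction and not for the HK arrays. Every HK array lay below every NC array for 12 of the 33 probes, against 3.91% of all measured probes, and every NK array did for 4, against 2.17%. Probes chosen for high NC arrays favor both counts, so they only describe how far the name reaches and support nothing. On an array-by-array view, the median of the 33 probes relative to the NC mean was -0.50, -0.59, -0.43, -0.70 and -1.0 in HC replicates 1 to 5. It was -0.21, -0.43, -0.10 and -0.40 in NK replicates 1 to 4 and -0.31, -0.75, -0.11 and -0.58 in HK replicates 1 to 4. HC replicate 5 and HK replicate 2 were the lowest arrays of their groups, and HK replicate 3 was close to NK replicate 3. HC replicate 5 was the lowest of the HC arrays for 21 of the 33 probes, compared with 25.4% of all measured probes. HK replicate 2 was the lowest HK array for 20 of the 33, compared with 27.0%, and NK replicate 2 the lowest NK array for 16, compared with 30.0%. Without HC replicate 5 the median HC-NC difference was -0.60, and the rule would choose 39 genes.

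Cell type markers differed between the same arrays. Of 22 neuron markers only NEUROD1, a transcription factor of newly formed neurons, was measured, and its signal relative to the 75th percentile was 4, 2.3 and 2.77 in NC and 2.1, 2.5, 3.26, 2.54 and 0.0166 in HC. In the ketamine groups it was 3.77, 2.54, 2.37 and 4.09 in NK and 1.45, 0.405, 2.6 and 1.63 in HK. The lowest NEUROD1 signals were thus in HC replicate 5 and HK replicate 2, the arrays that were lowest for most of the 33 probes. The summed signal of 4 of 6 choroid plexus markers, of which TTR was the brightest, was 1.5, 85.4 and 4.35 in NC, 0.93, 42, 7.98, 3.56 and 78.1 in HC, 0.991, 71.6, 1.55 and 5.55 in NK and 8.85, 50.9, 1.59 and 35.5 in HK. It was high in the second array of every group and in HC replicate 5 and HK replicate 4, so it varied within groups more than between them. Each measured marker of these lists was well above background on at least 1 array. The part of tissue composition in the low signals of the 33 probes was not tested, and in bulk tissue fewer cells of a type and less RNA per cell cannot be told apart.

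**Figure D2:**
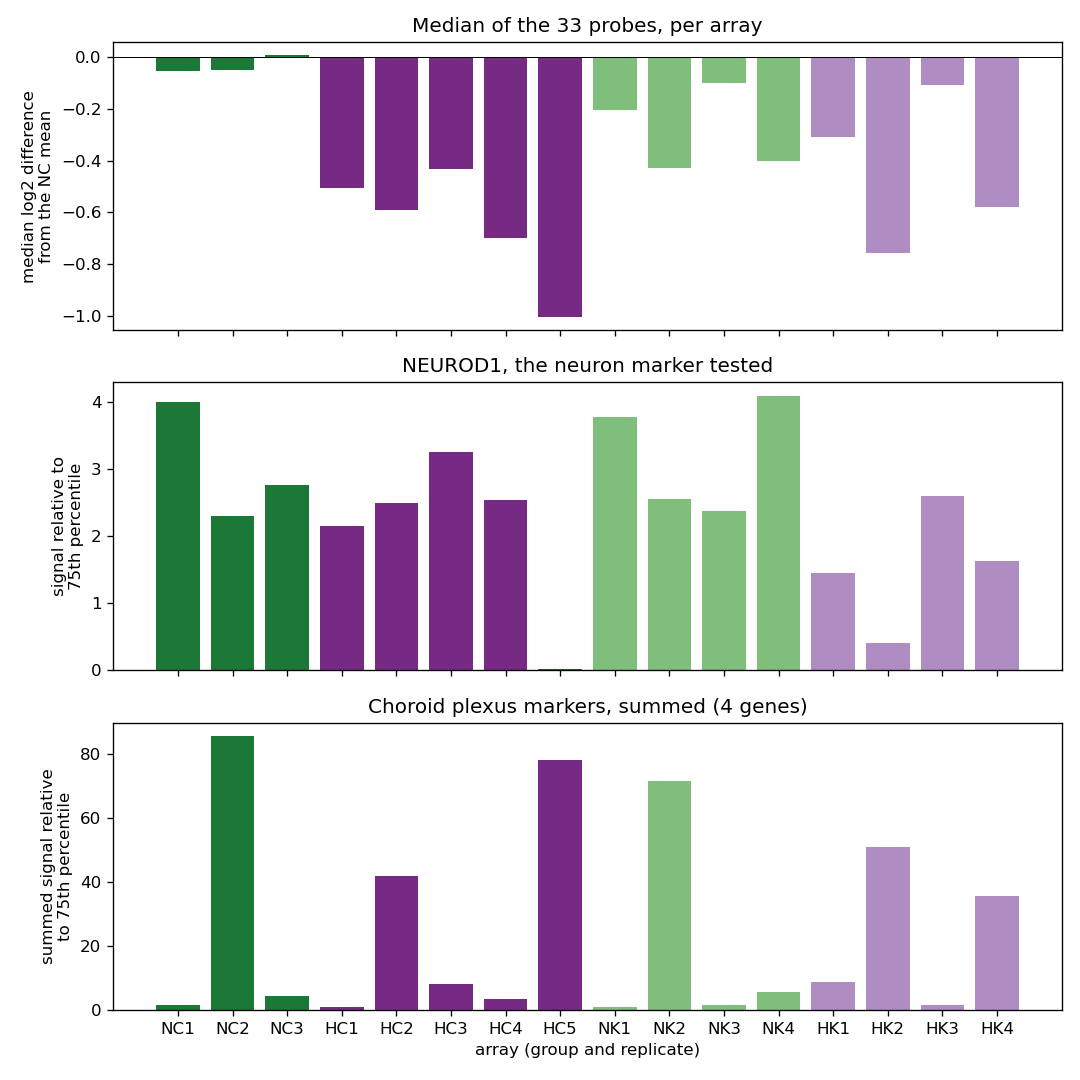
Per array, the median log2 difference of the 33 probes from their NC means, the NEUROD1 signal and the summed signal of 4 choroid plexus markers, both as multiples of the array's 75th percentile. HC5 and HK2, the fifth HC and the second HK array, have medians of -1.0 and -0.75 and the lowest NEUROD1 signals, 0.0166 and 0.405.

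Whether the same genes differ with hypoxia under ketamine can be asked of the HK and NK arrays, whose differences the rule did not use, although littermates of the NC and HC fetuses may be among them. All 16 arrays counted for being measured, and MMP14, with 1 NC and 1 HC array well above background, reached 3 only through its 2 NK arrays. With limma's moderated test on these 8 arrays, two-sided, 1 of the 33 probes was lower in HK and 0 were higher at an unadjusted p under 0.05, which is the criterion of the HK-NK results. Over all measured probes 327 (2.61%) were lower and 429 (3.42%) higher at the criterion, so 1 of 33 is near the background share. After Benjamini-Hochberg adjustment over all measured probes 0 of the 33 and 0 of all 12545 (0%) passed, against 756 at an unadjusted p under 0.05, and the adjusted p of the 33 lay between 0.80 and 1.00. Every HK array was below every NK array for 1 of the 33 and for 183 of all measured probes (1.46%). The median HK-NK difference was -0.17 for the 33 probes and -0.01 for all measured probes, and the HK mean was the lower one for 29 of the 33 and for 52.2% of all. With normexp the sign of that median turned, to 0.09, when the median over all measured probes was 0.08. Within the first slide the median of the 33 was -0.23, with 29 of them lower in HK, and within the second -0.13, with 20 lower. Over both slides the median was -0.06 without HK replicate 2 and -0.30 without HK replicate 3. It was -0.059 with the reset normexp and -0.029 with the authors' deposited values, so the lower direction was small in both. The 33 probes include near copies of one sequence, so they are not 33 separate observations, and counting each gene by the mean of its probes, 24 of 27 had the lower mean in HK. Deviations from the group means correlated between arrays of one replicate number. The correlations were 0.21 to 0.37 between NC and NK and 0.07 to 0.40 between HC and HK. A choice of high NC and low HC arrays may therefore carry over to NK and HK. The counts of 29 of 33 and 24 of 27 may be favored by it and support nothing.

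**Figure D3:**
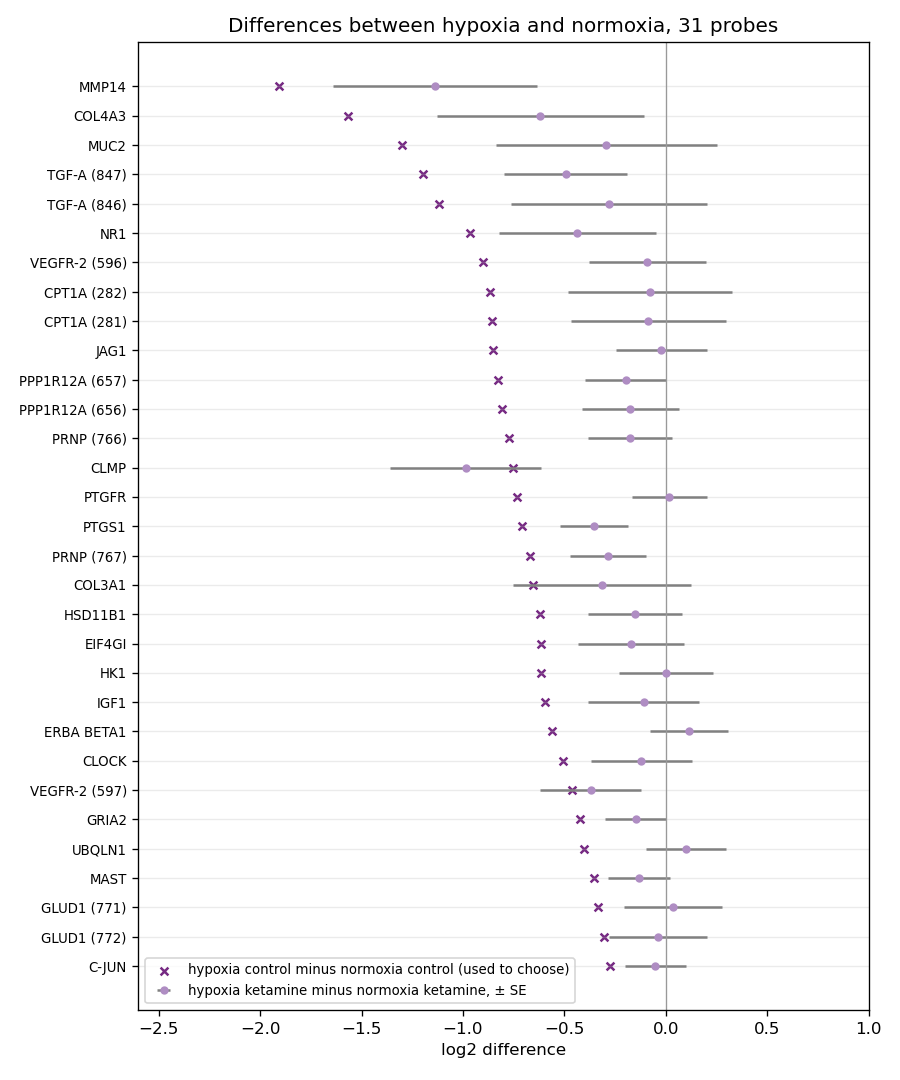
For 31 of the 33 probes, the HC-NC difference that chose it (crosses) and the HK-NK difference with its standard error from limma (points, n = 4 against 4), both on the log2 scale. The points run from -1.14 to 0.11, and 1 of them, CLMP, passed an unadjusted p under 0.05.

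The NK mean was below the NC mean for 30 of the 33 probes and the HK mean above the HC mean for 29. Both directions are favored by a choice that takes probes high in NC and low in HC, these contrasts share the arrays that made it, and nothing is read from them. Medians over the 33 were -0.30 for NK-NC and 0.18 for HK-HC, against 0.00 and 0.02 over all measured probes.

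Glutamate signaling is the field of NR1, GRIA2 and GLUD1. NR1 is the obligatory subunit of the NMDA receptor, the channel that ketamine blocks. Its log2 signal was -0.72, -0.87 and -0.75 in NC and -1.06, -1.77, -1.14, -1.55 and -3.23 in HC, a mean difference of -0.97. HC replicate 5 lay far below the rest and carries much of that difference, which was -0.61 on the first slide, where that array is absent. HC replicate 1 was the nearest to NC. Under ketamine the signal was -0.94, -1.78, -0.68 and -1.45 in NK and -0.99, -2.54, -1.10 and -1.97 in HK. These groups overlapped, and the HK-NK difference of -0.44 (SE 0.39) missed the criterion, but passed with the replicate number as a block, where HK was below NK in each of the 4 numbered pairs. A pairing of NK with HK by number was not settled, and the number cannot be told apart from array position. Nothing is therefore read from that pass. GRIA2, the AMPA receptor subunit that keeps calcium out of the channel, ranged over 2.20 to 2.45 in NC and 1.35 to 2.06 in HC, a mean difference of -0.42, and its HK-NK difference was -0.15 (SE 0.15).

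GLUD1, the mitochondrial enzyme that turns glutamate into a substrate of the citric acid cycle, was among the brightest of the 33 and had small differences. On probe A_70_P014771 its log2 signal was 2.78, 3.01 and 3.06 in NC and 2.59, 2.65, 2.72, 2.68 and 2.44 in HC. On A_70_P014772, which shares all but 1 base with the former, it was 2.88, 2.99 and 3.09 in NC and 2.60, 2.71, 2.75, 2.82 and 2.54 in HC. The probes differed by -0.34 and -0.30 between the group means, the smallest of the 27 genes beside C-JUN. In the ketamine groups the first probe gave 2.73, 2.23, 3.05 and 2.84 in NK and 2.51, 2.33, 3.21 and 2.95 in HK, and the second gave 2.85, 2.22, 3.12 and 2.97 in NK and 2.59, 2.32, 3.06 and 3.03 in HK. The second NK array and the first and second HK arrays were low on both, and the groups overlapped, with HK-NK differences of 0.04 (SE 0.24) and -0.04 (SE 0.24). The list of neurotransmitter receptors and synthesis, not confined to glutamate, held 8 measured genes, 2 of them among the 27, GRIA2 included. Of its other 6, 5 had a lower HC than NC mean, 0 had groups without overlap, and 0 passed the criterion in HK-NK. The glutamate receptor genes GRIN1 and GRIA4, left out of the 27 by name, did have every HC array below every NC array.

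Growth factors and their receptors gave 3 of the 27, and the Notch ligand JAG1 a further one. TGF-A is a ligand of the epidermal growth factor receptor. On its probe A_70_P016847 the log2 signal was -5.88, -6.09 and -5.30 in NC and -6.83, -6.43, -6.39, -6.53 and -8.60 in HC, and on A_70_P016846 it was -5.77, -5.21 and -5.22 in NC and -6.77, -5.97, -5.83, -6.91 and -7.10 in HC. Signals were near background, well above it on 3 of 5 HC arrays on either probe, and the mean differences were -1.20 and -1.12. On A_70_P016847 much of the size rests on HC replicate 5, and the first slide, where that array is absent, gave -0.64. Under ketamine A_70_P016847 gave -6.55, -6.44, -6.09 and -6.10 in NK and -7.13, -5.82, -7.03 and -7.17 in HK, with HK replicate 2 above all NK arrays and the other HK arrays below all of them. Of these arrays 3 of 4 in NK and 1 of 4 in HK were well above background, so the fitted difference of -0.49 (SE 0.30) is no exact size, nor is the -0.81 without HK replicate 2, at which the probe met the criterion. A_70_P016846 gave -6.90, -5.68, -7.34 and -5.89 in NK and -7.36, -5.92, -6.21 and -7.43 in HK, well above background on 2 of 4 and 1 of 4 arrays, with 2 HK arrays just below the lowest NK array and a difference of -0.28 (SE 0.48). Though these probes share 59 of 60 bases, their values differed by up to 1.43 log2 units on 1 array once each was centered on its mean. IGF1, a growth factor for neurons and glia, had a log2 signal of -4.14, -3.86 and -3.42 in NC and -4.27, -4.19, -4.29, -4.29 and -4.95 in HC, a mean difference of -0.59. HC replicate 5 stood below the other HC arrays, which lay within a narrow band just under NC. In NK it was -4.13, -4.04, -3.91 and -4.35 and in HK -4.28, -5.00, -3.64 and -3.93, overlapping, with HK replicate 2 the lowest and a difference of -0.11 (SE 0.27).

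VEGFR-2 is the main receptor of vascular endothelial growth factor and sits on endothelial cells. Its probes cover neighboring stretches of the transcript and share 40 of 60 bases, printed here in capitals because they show that the probes read the same transcript region yet differed in size of effect.
A_70_P026596: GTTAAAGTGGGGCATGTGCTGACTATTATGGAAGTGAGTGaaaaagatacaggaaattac
A_70_P026597: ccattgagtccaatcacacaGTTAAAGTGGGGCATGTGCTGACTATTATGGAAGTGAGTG
On A_70_P026596 the log2 signal was -5.07, -5.51 and -5.21 in NC and -6.79, -6.39, -6.10, -5.72 and -5.82 in HC, a mean difference of -0.90. On A_70_P026597 it was -5.07, -5.38 and -5.41 in NC and -6.06, -5.51, -5.63, -5.66 and -5.88 in HC, a mean difference of -0.46. HC replicate 1 was the lowest HC array on both probes, unlike most of the 27 genes. Under ketamine A_70_P026596 gave -5.27, -5.20, -5.59 and -6.03 in NK and -5.42, -6.13, -4.97 and -5.95 in HK. The other probe gave -4.95, -5.15, -5.14 and -5.72 in NK and -5.48, -5.88, -5.05 and -6.03 in HK. Neither separated the ketamine groups, with HK-NK differences of -0.09 (SE 0.29) and -0.37 (SE 0.25). The latter passed the criterion when HK replicate 3 was left out, at -0.56. Of 11 markers of endothelium and pericytes, 3 were measured, VEGFR-2 itself, FLT1 and PECAM1. Their sum was 0.982, 0.926 and 1.09 in NC, 1.54, 0.909, 1.29, 0.7 and 1.09 in HC, 0.757, 1.12, 1.16 and 0.997 in NK and 1.49, 1.36, 1.06 and 0.838 in HK, with PECAM1 the brightest. FLT1 and PECAM1 had higher means in HC than in NC, by 0.37 and 0.08, opposite to VEGFR-2.

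JAG1 activates Notch receptors on neighboring cells. Its probes A_70_P068126 and A_70_P068127 are the same sequence moved by 1 base, with the shared 59 bases in capitals, and are shown because only the second met the rule.
A_70_P068126: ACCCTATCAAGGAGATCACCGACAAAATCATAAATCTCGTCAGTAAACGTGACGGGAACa
A_70_P068127: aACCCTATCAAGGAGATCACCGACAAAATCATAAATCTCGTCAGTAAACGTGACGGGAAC
The second ranged over -5.95 to -5.08 in NC and -6.83 to -6.25 in HC and differed by -0.85, while the first differed by -0.27 with overlapping groups. Both were dim, and in HK-NK they differed by -0.02 and 0.07. In the plot of neighboring probes, JAG1 and MUC2 scatter where CPT1A and PPP1R12A lie on a line.

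Other growth factor genes did not follow one direction. The list of growth factors, their receptors and TGF-beta and BMP signaling held 44 measured genes, 3 of them among the 27. Of the other 41, 25 had a lower HC than NC mean with a median of -0.14, and 0 had groups without overlap. In HK-NK 3 of the 41 were lower at the criterion and 2 higher, against 2.61% and 3.42% of all measured probes. ACVR1, a receptor of the BMP branch, differed by -0.47, the muscle growth inhibitor MSTN by -0.64 and the signal transducer SMAD1 by -0.30. FST, which binds activins, differed by 1.16 and the activin receptor ACVR2A by 0.54. The list of Wnt, Notch and Hedgehog signaling held 6 measured genes, JAG1 and 5 others. Of these, 4 had a lower HC than NC mean, 1, the Hedgehog signal transducer SMO, had every HC array above every NC array (difference 0.42), and 0 passed the criterion in HK-NK.

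Matrix and cell surface genes include some of the weakest signals of the 27. MMP14, a membrane-bound protease that cuts collagen, had a log2 signal of -6.56, -6.76 and -2.56 in NC and -7.02, -7.23, -7.33, -7.46 and -6.97 in HC. Its difference of -1.91 rests on NC replicate 3, the 1 NC array well above background, while the other NC arrays lay just over the HC arrays. Of its other 3 measured probes, which differed by -0.56, -0.13 and -0.06, 0 met the rule. In NK the signal was -6.31, -6.65, -6.85 and -5.97 and in HK -7.03, -6.49, -7.82 and -9.01. It was well above background on 2 of 4 NK and 0 of 4 HK arrays, and since MMP14 counted as measured only through the NK arrays, where it was brighter, its HK-NK difference is a description and supports nothing. That difference of -1.14 (SE 0.50) missed the criterion, with HK replicate 2 inside the NK range. It passed with quantile normalization (-1.20), median scaling (-1.14) and the slide as a block, and without HK replicate 1 (-1.32) or HK replicate 2 (-1.50). It was -0.66 without HK replicate 4 and -0.13 with the reset normexp, so its size is not settled. Among the alternatives run, its direction turned only with normexp as planned (0.12), the correction that went astray. Of the other MMP14 probes, A_70_P031017 differed by -0.38 in HK-NK, A_70_P050426 by -0.50 and A_70_P050291 by 0.50, and none passed the criterion. A_70_P031017 was well above background on 4 of 4 NK and 4 of 4 HK arrays, and A_70_P050291 on 1 of 4 in each group. COL4A3, a chain of the basement membrane collagen, had a log2 signal of -4.21, -4.04 and -4.30 in NC and -5.56, -6.01, -4.34, -6.41 and -6.44 in HC, a mean difference of -1.57. HC replicate 3 was just under the lowest NC array and the rest were more than 1 log2 unit under it. Under ketamine its signal was -4.96, -3.86, -5.60 and -5.03 in NK and -4.44, -5.02, -6.54 and -5.92 in HK, overlapping at a difference of -0.62 (SE 0.51). COL3A1, a collagen of vessel walls and meninges, ranged over -5.40 to -5.06 in NC and -6.13 to -5.67 in HC, a mean difference of -0.65, and a probe moved by 2 bases differed by -0.56 with overlap. In HK-NK the former differed by -0.32 (SE 0.44), HK replicate 2 being the lowest at -6.80. The other HK arrays were at -5.24, -4.72 and -5.77 and the NK mean at -5.32, so the lower direction rests on HK replicate 2. The meninges and mesenchyme markers measured were COL3A1, DCN and PTGDS, 3 of 6, with PTGDS the brightest. Their sum was 42.8, 47.9 and 59.8 in NC, 56.4, 55.4, 35.3, 68.8 and 65.2 in HC, 49.9, 66.8, 69.9 and 47.3 in NK and 69.7, 56.3, 54.6 and 71.3 in HK, with no step between groups.

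MUC2 is known as the gel-forming mucin of the gut. Its pair of probes, again 1 base apart with the shared bases in capitals, is shown because the sequences are nearly one and the values are not.
A_70_P068136: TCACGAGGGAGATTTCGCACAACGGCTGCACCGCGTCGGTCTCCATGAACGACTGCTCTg
A_70_P068137: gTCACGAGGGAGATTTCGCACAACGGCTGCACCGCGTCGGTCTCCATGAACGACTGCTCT
A_70_P068136, which met the rule, had a log2 signal of -5.16, -6.34 and -6.74 in NC and -7.02, -7.91, -6.95, -7.92 and -7.12 in HC, a mean difference of -1.30, and its spot was marked well above background in 2 of 3 NC arrays but 1 of 5 in HC. A_70_P068137 differed by -0.02. In NK the former gave -7.83, -7.50, -6.55 and -7.76 and in HK -6.82, -6.67, -8.47 and -8.84, with HK replicates 3 and 4 below all NK arrays and HK replicates 1 and 2 above most of them, 1 of 4 arrays well above background in each group and a difference of -0.29 (SE 0.54). At such signals the MUC2 difference was not detectable on both probes.

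CLMP, an adhesion protein of the immunoglobulin family found at cell junctions, was the 1 gene past the criterion in HK-NK. Its log2 signal was -3.42, -4.25, -4.26 and -3.08 in NK and -4.56, -5.60, -4.18 and -4.62 in HK. Each HK array was below the NK mean and 3 of 4 were below every NK array, with HK replicate 2 the lowest and HK replicate 3 inside the NK range. The difference was -0.99 (SE 0.37, adjusted p = 0.80), and it failed the adjustment. An exact permutation test over the arrays, two-sided, gave p = 0.0857, where 0.0286 is the smallest that 4 against 4 arrays allow. Within the slides the difference was -1.25 and -0.73. Without HK replicate 2 it was -0.70 and missed the criterion, as it did without NK replicate 1 (-0.88) and without NK replicate 4 (-0.76). It passed with quantile normalization (-1.0), median scaling (-0.99) and the slide as a block. With normexp it was -0.01, with the reset normexp -0.38, with the authors' deposited values -0.13 and in a fit of all 4 groups -0.99, and none of these passed. A neighboring CLMP probe, 1 base apart and not among the 33 because its HC and NC groups overlapped, differed by -0.98 in HK-NK at the criterion, which is the same measurement and no replication. In the arrays that chose it, CLMP had -4.00, -3.99 and -3.64 in NC and -4.08, -4.04, -4.11, -4.48 and -6.46 in HC, so its HC-NC difference of -0.76 rests on HC replicate 5. The list of cytoskeleton, adhesion and matrix held 21 measured genes, 2 of them MMP14 and COL3A1. Of the other 19, 10 had a lower HC than NC mean, ITGB1, an integrin subunit, had every HC array above every NC array (0.30), and in HK-NK 1 was lower, the actin-binding TPM1 (-0.29), and 0 were higher.

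Prostaglandin, steroid and thyroid signaling gave 4 genes. PTGS1, the constitutive cyclooxygenase that makes prostaglandins, was the only probe of the 33 with every HK array below every NK array, a feature named after its values were seen. Its log2 signal was -0.29, -0.36, -0.38 and 0.30 in NK and -0.42, -0.66, -0.46 and -0.61 in HK. NK replicate 4 stood apart above, and the gap between the other NK arrays and HK was small. The difference was -0.36 (SE 0.17, adjusted p = 0.838), and it missed the criterion. The exact permutation p of 0.0286 follows from that separation alone and adds nothing to it. Without NK replicate 4 the difference was -0.20. In the arrays that chose it, PTGS1 ranged over -0.25 to 0.30 in NC and -1.27 to -0.38 in HC, a mean difference of -0.71. PTGFR, a prostaglandin F receptor, was the probe closest to failing the rule, with a gap of 0.003 between the highest HC and the lowest NC array. Its log2 signal was -4.03, -3.66 and -2.76 in NC and -4.57, -4.10, -4.15, -4.03 and -4.22 in HC, a mean difference of -0.73. Much of that size rests on NC replicate 3, the highest array, and on the first slide, which lacks it, the difference was -0.49. Under ketamine the PTGFR signal was -3.93, -3.78, -4.29 and -3.72 in NK and -4.27, -3.61, -4.01 and -3.78 in HK, with almost equal means (0.02 with SE 0.18). HSD11B1, which regenerates active glucocorticoid inside cells, ranged over -2.91 to -2.54 in NC and -3.95 to -2.97 in HC, a mean difference of -0.62, and its brighter second probe differed by -0.52 with overlap. Under ketamine HSD11B1 showed an HK-NK difference of -0.15 (SE 0.23). ERBA BETA1, a thyroid hormone receptor, ranged over -2.70 to -2.36 in NC and -3.42 to -2.81 in HC, a mean difference of -0.56, and had the highest HK-NK difference of the 33, 0.11 (SE 0.19). In the list of nuclear receptors and steroid enzymes 10 genes were measured, HSD11B1 among them, and of the other 9, 7 had a lower HC than NC mean and 0 passed the criterion in HK-NK.

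Energy metabolism gave CPT1A and HK1. CPT1A admits fatty acids to mitochondria and is the step that limits their oxidation. Its probes are 1 base apart, with the shared 59 bases in capitals, and are shown because here, unlike in JAG1 and MUC2, such a pair gave nearly the same value on every array.
A_70_P051281: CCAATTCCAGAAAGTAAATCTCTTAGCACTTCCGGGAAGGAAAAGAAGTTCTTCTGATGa
A_70_P051282: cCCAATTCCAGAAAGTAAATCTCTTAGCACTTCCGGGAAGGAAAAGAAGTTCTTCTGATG
The log2 signal of A_70_P051281 was -0.67, -0.98 and -0.96 in NC and -1.96, -1.94, -1.30, -1.79 and -1.63 in HC. That of A_70_P051282 was -0.64, -0.90 and -1.0 in NC and -1.95, -1.93, -1.30, -1.78 and -1.63 in HC. The mean differences were -0.86 and -0.87, and once centered the probes differed by at most 0.14 on an array, so they stand for 1 measurement. In NK A_70_P051281 gave -0.65, -1.68, -0.97 and -1.55 and in HK -1.18, -2.26, -0.50 and -1.26. For A_70_P051282 the values were -0.64, -1.67, -0.89 and -1.62 in NK and -1.19, -2.24, -0.35 and -1.35 in HK. HK replicate 2 was the lowest and HK replicate 3 the highest of the ketamine arrays, and the HK-NK differences were -0.09 (SE 0.38) and -0.08 (SE 0.41). The hexokinase gene HK1, which starts glycolysis in brain, ranged over 0.56 to 0.69 in NC and -0.35 to 0.39 in HC, a mean difference of -0.61, and its HK-NK difference was 0.00 (SE 0.23). The list of mitochondria and energy metabolism held 10 measured genes, CPT1A and 9 others, of which 6 had a lower HC than NC mean and 1, the respiratory chain subunit COX5A, was higher in HK-NK at the criterion (0.64). The list of the response to hypoxia held 12, HK1 and 11 others, of which 5 had a lower HC than NC mean, 0 had groups without overlap and 0 passed in HK-NK. The genes left out by name are in none of the lists, so ARNT and AHR, partners in oxygen and xenobiotic sensing whose HC arrays all lay below the NC arrays, are not in that 0. In lipid and cholesterol handling 11 genes were measured, 0 of them among the 27, and 8 had a lower HC than NC mean, again with 0 past the criterion in HK-NK.

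**Figure D4:**
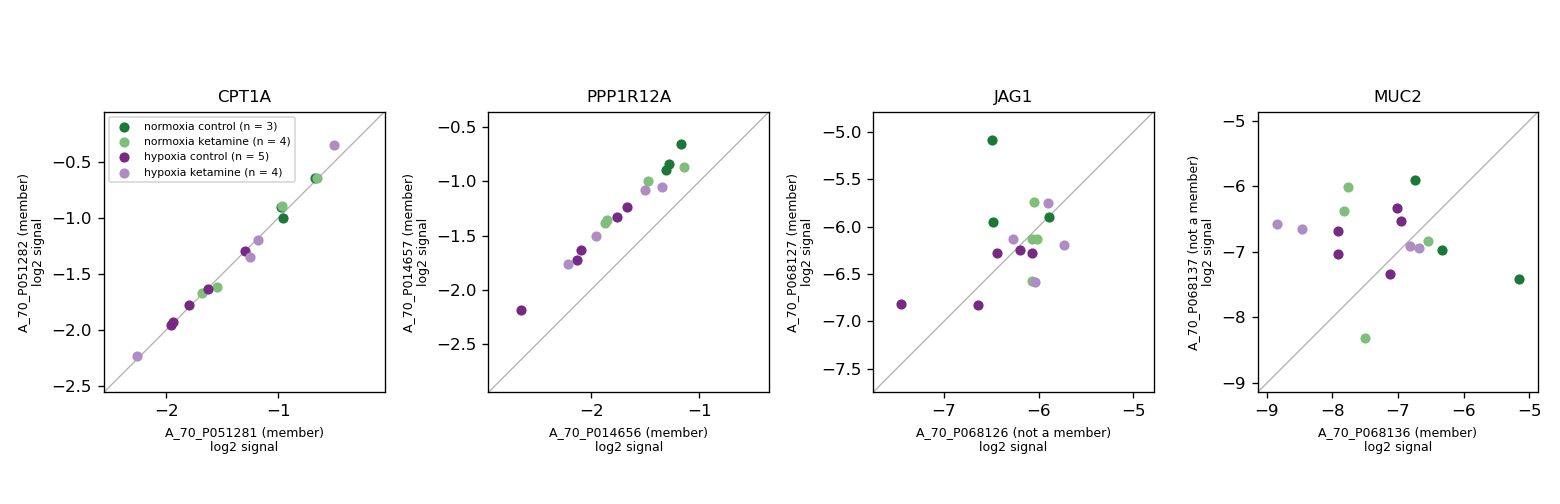
Log2 signal of neighboring probes of CPT1A, PPP1R12A, JAG1 and MUC2 against each other, 1 point per array (n = 16), with the line of equal signal. CPT1A (59 shared bases) and PPP1R12A (40 shared bases) follow a straight line, while JAG1 and MUC2 (59 shared bases each) scatter at signals near background.

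PPP1R12A targets myosin phosphatase to its substrate and so lowers contraction and actin tension. Its probes overlap by 40 bases, in capitals, and are shown because their values followed each other over the arrays, as 1 measurement read at overlapping sites.
A_70_P014656: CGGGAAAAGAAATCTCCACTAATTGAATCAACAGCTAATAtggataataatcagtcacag
A_70_P014657: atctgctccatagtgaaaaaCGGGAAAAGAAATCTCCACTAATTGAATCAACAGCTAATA
On A_70_P014656 the log2 signal was -1.31, -1.17 and -1.28 in NC and -1.76, -2.09, -1.67, -2.13 and -2.65 in HC, and on A_70_P014657 it was -0.90, -0.66 and -0.84 in NC and -1.33, -1.64, -1.24, -1.73 and -2.18 in HC. The mean differences were -0.81 and -0.83, with HC replicate 5 the lowest on both. Under ketamine A_70_P014656 gave -1.47, -1.87, -1.14 and -1.85 in NK and -1.51, -2.22, -1.35 and -1.96 in HK, and A_70_P014657 gave -1.0, -1.39, -0.87 and -1.35 in NK and -1.08, -1.77, -1.06 and -1.50 in HK. The groups overlapped on both, with HK-NK differences of -0.17 (SE 0.24) and -0.20 (SE 0.20). The list of kinases and phosphatases of signaling held 3 measured genes, 0 of them among the 27. Of these, 0 had a lower HC than NC mean, the GTPase RAC1 had every HC array above every NC array (0.25), and 0 passed in HK-NK.

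PRNP, the prion protein of neuronal membranes, had 4 measured probes, of which the dim ones met the rule and the bright ones did not. On A_70_P056766 the log2 signal was -2.98, -2.76 and -2.94 in NC and -3.29, -3.76, -3.45, -3.94 and -3.89 in HC, and on A_70_P056767, 1 base apart, it was -3.20, -2.80 and -2.99 in NC and -3.32, -3.77, -3.27, -4.10 and -3.86 in HC. These differed by -0.77 and -0.67. The other probes had NC means of 3.84 and 4.29, and they differed by -0.15 and -0.10 with overlapping groups, so the PRNP difference held for 1 of its probe sites. In NK A_70_P056766 gave -3.22, -3.65, -2.90 and -3.30 and in HK -3.11, -3.88, -3.38 and -3.40. The values of A_70_P056767 were -3.31, -3.56, -2.95 and -3.38 in NK and -3.35, -4.04, -3.48 and -3.47 in HK. Both sets overlapped, HK replicate 2 was the lowest, and the differences were -0.18 (SE 0.21) and -0.28 (SE 0.19). UBQLN1, which carries ubiquitin-tagged proteins to the proteasome, ranged over -1.43 to -1.41 in NC and -2.20 to -1.52 in HC, a mean difference of -0.40, against 0.10 (SE 0.20) in HK-NK. The list of protein folding, ubiquitin and proteolysis held 12 measured genes, PRNP and 11 others, of which 8 had a lower HC than NC mean and 1, the chaperone HSPA5, was lower in HK-NK (-0.35).

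C-JUN, CLOCK and EIF4GI act on transcription and translation. C-JUN, a subunit of the AP-1 transcription factor and the brightest of the 33 probes, had a gap of 0.012 between the groups. Its log2 signal was 3.08, 3.08 and 3.25 in NC and 2.79, 2.66, 3.07, 2.99 and 2.80 in HC, a mean difference of -0.27. Its second probe was much dimmer, with an NC mean of -0.89, and differed by -0.39 with overlapping groups. In NK the brighter probe gave 3.19, 2.96, 3.11 and 3.09 and in HK 3.08, 2.64, 3.13 and 3.30, with HK replicate 2 the lowest, HK replicate 4 the highest and a difference of -0.05 (SE 0.15). CLOCK, a transcription factor of the circadian clock, ranged over -4.28 to -4.21 in NC and -5.25 to -4.55 in HC, a mean difference of -0.51, and its HK-NK difference of -0.12 (SE 0.25) had opposite signs on the 2 slides. So did those of other probes, among them the probes of MUC2, IGF1, CPT1A, JAG1 and C-JUN and A_70_P026596 of VEGFR-2. EIF4GI, the scaffold that brings ribosomes to capped messenger RNA, ranged over -2.85 to -2.57 in NC and -3.96 to -2.94 in HC, a mean difference of -0.62, against -0.17 (SE 0.26) in HK-NK. MAST, a name whose gene could not be settled, ranged over -4.49 to -4.25 in NC and -5.16 to -4.58 in HC, a mean difference of -0.35, with -0.13 (SE 0.15) in HK-NK. In the circadian clock list 9 genes were measured, CLOCK and 8 others, of which 3 had a lower HC than NC mean and TIMELESS, printed as TIM, a partner of clock and replication proteins, was lower in HK-NK (-0.38). Among transcription factors and chromatin genes 9 were measured, C-JUN and 8 others, of which 5 had a lower HC than NC mean and CITED2, which dampens the hypoxia-inducible factors, was higher in HK-NK (0.46).

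Just outside the rule lay PPIA, CREB and PC1, whose highest HC array passed the lowest NC array by under 0.01. PPIA, the peptidyl-prolyl isomerase cyclophilin A, had a log2 signal of 5.66, 5.67 and 5.80 in NC and 5.65, 5.59, 5.65, 5.66 and 5.59 in HC, with a saturated spot on 2 of the 16 arrays. CREB, the transcription factor that binds cyclic AMP response elements, had -3.34, -3.38 and -3.22 in NC and -3.59, -3.46, -3.37, -3.39 and -3.74 in HC. PC1, another name whose gene could not be settled, had -2.42, -1.62 and -1.89 in NC and -2.47, -2.75, -2.42, -2.53 and -3.15 in HC. These differed by -0.08, -0.20 and -0.69, so PC1 fell outside with a larger difference than CLOCK, GRIA2 or C-JUN inside, and the rule sorts by overlap and not by size.

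Gene lists with none of the 27 also showed single genes. Of 10 ion channels and pumps measured, 7 had a lower HC than NC mean, 1, the sodium pump subunit ATP1B1, had every HC array below every NC array (-0.16, and printed on the array under a locus number, hence outside the rule), and 0 passed in HK-NK. Of 30 neuropeptides, peptide hormones and their receptors, 20 had a lower HC than NC mean. In HK-NK 1 was lower and 4 were higher at the criterion, against 2.61% and 3.42% of all measured probes. The lower one was the neuropeptide Y receptor NPY1R (-0.34), and the higher ones were the peptide ADCYAP1 (1.54), the oxytocin receptor OXTR (1.23), the angiotensin receptor AGTR1 (0.99) and the endothelin EDN1 (0.79). AGTR1 also had every HC array above every NC array. Of 9 genes of cell death and survival, 2 had a lower HC than NC mean, and 3, namely BAK1, MCL1 and TNFRSF1A, had every HC array above every NC array. Of these 9 genes 0 passed in HK-NK, while BAX, left out by name, had every HC array below. Over all measured probes, 2.89% had every HC array above and 4.92% every HC array below. Of 10 genes of cell cycle and DNA repair, 3 had a lower HC than NC mean and 0 passed in HK-NK. Genes past the criterion or without overlap in the other lists stand beside the same shares of all measured probes. For a gene with several probes the brightest one stood for it, and no gene named from a list passed in HK-NK after adjustment.

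Markers of immune cells had the higher mean sums after hypoxia in both pairs of groups. Of 13 markers of microglia and macrophages 6 were measured, and their sum was 0.515, 0.606 and 0.644 in NC, 0.855, 2.34, 1.56, 1.24 and 0.982 in HC, 0.558, 0.662, 0.567 and 0.657 in NK and 0.952, 1.69, 0.605 and 0.844 in HK, with FCER1G the brightest. Each HC array was above each NC array in this sum, and in HK-NK 1 of the 6, LYZ, was higher at the criterion (3.33). Of 11 neutrophil markers, 3 were measured, CATHL2, CATHL3 and LTF. All 3 were higher in HK-NK at the criterion, by 3.65, 4.42 and 1.98, against 3.42% of all measured probes. The neutrophil sum, with CATHL2 the brightest, was 0.162, 0.635 and 0.581 in NC, 0.464, 3, 13.5, 0.61 and 2.26 in HC, 0.193, 0.194, 0.105 and 0.568 in NK and 0.578, 12.2, 0.675 and 14.5 in HK. It was highest in HC replicate 3 and in HK replicates 2 and 4, and only HK replicate 2 of these was also the lowest array of its group for most of the 33 probes. NEUROD1 was lower in HK-NK at the criterion (-1.31), was -0.76 without HK replicate 2, and missed the criterion without HK replicate 1 (-1.38), NK replicate 1 (-1.22) or NK replicate 4 (-1.18). In HC-NC it differed by -1.64 with overlapping groups, and by -0.19 without HC replicate 5, on which the difference therefore rests. Of 8 astrocyte markers 5 were measured, AQP4 the brightest, and 0 passed in HK-NK, with sums of 64.2, 67.9 and 75.1 in NC, 63.6, 77.6, 85.6, 67.9 and 91.1 in HC, 67, 57, 69.2 and 73 in NK and 64.5, 79.9, 74.4 and 73.1 in HK. None of 11 oligodendrocyte markers was found among the measured probes that could be given a symbol, so that cell type was not followed here. In the remaining marker lists, 0 passed in HK-NK of the 4 choroid plexus markers, of DCN and PTGDS, of FLT1 and PECAM1, of HBB, the 1 red blood cell marker measured of 6, and of PAX6 and VIM, the 2 neural progenitor markers measured of 8. The HBB signal was 15.2, 11.4 and 8.41 in NC, 11.9, 13.9, 5.97, 24.4 and 34.2 in HC, 13.8, 20.4, 13.5 and 15.3 in NK and 17.3, 14, 21.4 and 10.4 in HK, and thus varied with the animal. The progenitor sum, in which VIM was the brighter, was 61.3, 51.9 and 45.4 in NC, 45.9, 53.9, 62.3, 65.4 and 71.7 in HC, 55.2, 49, 45.5 and 55.6 in NK and 43.5, 42.6, 53 and 60.6 in HK. The part of these cells in the differences of the 33 probes was not tested.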

How the data were processed

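The values are from 16 one-color ovine arrays of fetal hippocampus, grouped by the sample labels. For every array the authors deposited scanner output. In it, per the file headers, Feature Extraction 10.1.1.1 gives the intensity of spots after background subtraction and detrending within the array, with surrogate values near background and no scaling between arrays. Spots were marked well above background with a multiplier of 13. The authors also deposited a log2 table of the same arrays, whose column medians all round to 8.66. Its labels name limma as a tool but not the steps, and it served as an alternative only.

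Here the log2 of the processed intensity was taken, the 75th percentile of each array's non-control spots subtracted, spots marked as outliers left out (117 probe values missing, 0 among the 33 probes), and spots of a probe averaged. Of 15008 probes, 12545 were well above background on 3 or more arrays. Names came from the array's annotation, and symbols from RefSeq (assembly ARS-UI_Ramb_v3.0, by name, synonym or accession) or from a hand-written list of older names made after the array's names were seen. Names made of accession-like letters and digits were not counted as gene names.

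HK and NK were compared with limma 3.58.1 in R 4.3.3 (lmFit and eBayes on those 8 arrays, two-sided), with Benjamini-Hochberg adjustment over all 12545 probes, after a test on simulated data. Exact permutation tests used the 70 ways of dealing 8 arrays into groups of 4. Array-by-array values are given for genes past the criterion, for 9 of the 10 probes with the largest HC-NC difference, for genes with several of the 33 probes, for the 3 probes nearest each side of the rule, and for genes of the growth factor list among the 27; PTGS1 was added, in HK and NK, after its values were seen; the others are given by range, and 2 of the 27 genes are not reported here one by one. The members of the group and the gene lists, named with their results in the text, were chosen with earlier results of these data known. Alternatives were other backgrounds (normexp with an offset of 50), scalings, filters, fits and blocks, 1 probe per name, each slide, and leaving out each array. No promoter, protein or genome sequence was used.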

Additional observations from a re-analysis of the deposited data

Results flagged for a closer look

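Dixon's Q test at the 5% level was applied to 31 of the 33 probes within each group of 4 or 5 arrays, 93 tests in all. Chance alone would mark about 1 in 20 of separate tests on values that did not choose the probes. The HC values did choose them, and probes that share most bases are not separate, so that rate is no baseline here. The test marked 7 array values, which are given as a description. TGF-A (A_70_P016847) was lowest in HC replicate 5 at -8.60 and, in HK, highest in replicate 2 at -5.82. PTGS1 was highest in NK replicate 4 at 0.30. CLMP (-6.46), IGF1 (-4.95) and GRIA2 (1.35) were lowest in HC replicate 5, and MAST was lowest in HC replicate 3 at -5.16. All were kept.

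The groups hold 3 to 5 animals, and no adjusted p was small. The HC-NC differences chose the genes and cannot test them. The labels tie neither pregnancy nor RNA quality to an array, so neither was modeled, and the part of cell composition was not tested. Several probes of a gene share most bases and count as 1 measurement. NR1 and ERBA BETA1 stand among the genes by their printed names only.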

How the results depend on the processing

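The count of lower probes among the 33 past the criterion in HK-NK, 1 as analyzed, was 0 with normexp background at an offset of 50, 0 with normexp with outlying local backgrounds reset (an alternative added after the planned one was seen to fail), 2 with quantile normalization, 2 with the array median (MMP14 beside CLMP in each), and 0 with the authors' deposited log2 table. It was 0 with only probes well above background on all 16 arrays (25 of the 33, CLMP not among them), 2 with slide as a block (CLMP and MMP14) and 0 in 1 fit of all 4 groups. Leaving out 1 HK or NK array gave 0 to 3.

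With replicate block, which pairs arrays by replicate number, the count was 2 (CLMP and NR1). Array deviations of one number correlated at 0.03, 0.16, 0.12 and 0.26 between NK and HK. They did so at 0.37, 0.31 and 0.21 between NC and NK and at 0.40, 0.31, 0.07 and 0.13 between HC and HK. The means for unlike numbers were lower, at -0.05, -0.10 and -0.06 in the same order. A pairing of NK with HK by number was not settled by these values. Ketamine arrays shared deviations with the arrays that chose the genes, so the HK-NK comparison is not fully independent of that choice. Between NC and HC the correlations were lower, at 0.08, 0.13 and 0.04 for numbers 1 to 3. Each number lay at one slide and array row, so number and array position cannot be told apart.

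Under normexp background with offset 50, 31 of all measured probes were lower and 48 higher in HK-NK, the median HK-NK difference of the 33 was 0.0921, and that of MMP14 was reversed, at 0.12.

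The number of genes under the rule, 27, was 14 with normexp background (6 of the 27 kept), 43 with outlying local backgrounds reset (21 kept), 18 in the authors' deposited log2 table (14 kept), 140 within slide 1 and 239 within slide 2, and 28 to 55 when 1 HC or NC array was left out. The median HC-NC difference of the 33, -0.71, was 0.32 with normexp background, -0.40 with the reset and -0.18 in the authors' deposited log2 table. Normexp and the deposited table compress the differences of dim probes, so these sizes are not on one scale.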
